A study of Mus musculus with 12 samples.

Results

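The 36 genes described here encode the machinery that folds, checks and exports proteins in the endoplasmic reticulum (ER) and the stress pathways that adjust it. They were chosen by name and found by Ensembl identifier among the 46603 genes of the count table, and all 36 were present. By role they comprise 8 sensors and transcription factors, 11 chaperones and co-chaperones of the ER lumen, 5 protein disulfide isomerases, 7 genes of ER-associated degradation, 2 subunits of the translocon and 3 targets of the integrated stress response. They were measured by RNA-seq of poly-A RNA in TNFdARE synovium, WT synovium, TNFdARE ileum and WT ileum, with 3 biological replicates per group and 12 libraries in all. TNFdARE mice carry a Tnf gene without its AU-rich element, which destabilises Tnf mRNA and limits its translation, and are known to develop arthritis and ileitis; the modification is in the germ line, so every cell type carries it. The WT mice were littermates. The labels give neither the age nor the sex of the mice, the number of copies of the modified allele, nor whether an ileum and a synovium library share a mouse.

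ER stress arises when proteins enter the ER faster than they can be folded. The sensors IRE1 (Ern1, and Ern2 in mucosal epithelium), PERK (Eif2ak3) and ATF6 then raise chaperones and degradation genes through the transcription factors XBP1, ATF4 and ATF6, and slow translation. Cells that secrete much protein, such as goblet, Paneth and plasma cells of the gut and the fibroblasts of the synovium, keep this machinery at a high level. The active form of XBP1 is made by splicing of its mRNA, and the cleavage of ATF6 and the phosphorylation of PERK leave the mRNA as it is, so gene counts do not measure the activity of these factors.

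Many of these genes carry a known control sequence in their promoters, the ER stress element (ERSE), which ATF6 and XBP1 bind. It was searched as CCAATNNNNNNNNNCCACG, on both strands, in the RefSeq promoters of GRCm38.p6, which run from 250 bases before to 50 bases after the start of each gene. Of the 36 genes, 30 matched an entry of that table. The ERSE stood in 9 of these 30 promoters (30.0%), against 37 of 27025 genes in the whole table (0.137%). A shorter form, ERSE-II (ATTGGNCCACG), stood in 2 of 30 (6.67%), against 0.0444% of all genes. The sites below belong to genes that passed a test of genotype in a tissue, or of its difference between tissues. They are shown 5′ to 3′ on the strand named, with the fixed letters of the motif in capitals.
Hspa5, chr2:34772020-34772048, plus strand: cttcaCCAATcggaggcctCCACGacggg
Hsp90b1, chr10:86705633-86705661, minus strand: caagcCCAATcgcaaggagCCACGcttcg
Hsp90b1, chr10:86705528-86705556, plus strand: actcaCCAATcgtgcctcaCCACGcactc
Calr, chr8:84847070-84847098, plus strand: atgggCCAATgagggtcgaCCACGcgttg
Canx, chr11:50325795-50325823, minus strand: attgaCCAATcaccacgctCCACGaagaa
Pdia6, chr12:17266486-17266514, plus strand: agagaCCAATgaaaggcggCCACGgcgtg
Creld2, chr15:88819515-88819543, minus strand: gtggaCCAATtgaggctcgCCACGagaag
Dnajc3, chr14:118937822-118937850, plus strand: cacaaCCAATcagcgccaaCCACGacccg
Syvn1, chr19:6046527-6046555, plus strand: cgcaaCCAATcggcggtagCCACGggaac
Dnajb11, chr16:22857844-22857870, plus strand: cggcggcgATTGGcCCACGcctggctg
The first 9 lines hold the ERSE and the last holds ERSE-II. In Hspa5 the motif began 65 bases before the start, and in Hsp90b1 it occurred on both strands, 212 and 107 bases before the start. The Dnajb11 motif began 7 bases after the start of its RefSeq entry. The remaining sites were an ERSE in Derl3 and an ERSE-II in Herpud1. The promoters of Atf6, Derl1, Ern2, Hyou1, Manf and Sec61a1 were not analysed here. A match in these letters is a description of the promoter and does not show that a factor binds there. The genes were chosen by name for known roles in the ER, so the higher shares of these elements are no separate result.

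Targets of ATF4 carry a different element, the CARE, searched as TGATGNAAN on both strands. It stood in 5 of the 30 promoters (16.7%), those of Asns, Atf3, Chac1, Herpud1 and Trib3, against 4.50% of all genes, and is shown for Asns, the gene of asparagine synthetase.
Asns, chr6:7693216-7693240, minus strand: cagccacaTGATGaAActtcccgca
Asns carried it 23 bases before the start, on the strand of the gene. As for the ERSE, the choice of genes by name means that the higher share is no separate result. No matches overlapped each other. None of the 5 promoters with a CARE held the ERSE; that of Herpud1 held both a CARE and the ERSE-II.

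The libraries held between 14267834 and 16224402 counts, and levels are given as CPM, the count per 1e6 counts of a library, after TMM scaling over the 12 libraries. Tnf, which tests the genotype labels, had 38.4, 32.6 and 28.3 CPM in the 3 TNFdARE synovium libraries, against 2.15, 2.02 and 1.89 CPM in WT. In the ileum it had 82.8, 17.2 and 47.4 CPM in TNFdARE and 2.63, 1.39 and 1.62 CPM in WT, so the genotypes did not overlap in either tissue. Of 8 epithelial markers, Cdx2 and Slc10a2 had 0 counts in all synovium libraries, and 2 others exceeded 1 CPM in each. The 8 summed to between 16.3 and 26.6 CPM in TNFdARE synovium and between 29.0 and 32.9 CPM in WT synovium. All 11 skeletal muscle markers exceeded 1 CPM in every synovium library, so that tissue held muscle RNA beside the 9 of 9 synovial fibroblast markers. In the ileum the muscle myosin gene Myh4 had 0 counts. There the 11 muscle markers summed to between 17.5 and 34.0 CPM in TNFdARE and between 58.1 and 123.6 CPM in WT. Xist and 4 Y-linked genes gave a female pattern in replicate 3 of each group and a male pattern in replicates 1 and 2, so sex was balanced between the genotypes.

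Exons of 9 of the 36 genes overlap exons of a gene on the opposite strand in GENCODE M21: Ddit3 with Mars, Dnajb9 with Mir5627, Eif2ak3 with Gm43292, Hsp90b1 with 1810014B01Rik, Manf with Dcaf1, Pdia3 with Catsper2, Pdia6 with Atp6v1c2, Sec61a1 with Gm44170 and Syvn1 with Mrpl49. The library kit kept the strand, but the strand setting of the counting is not given in the sources used here, so reads of these pairs may be mixed. On the same strand, exons overlap for Hsp90b1 with Gm15344 and Gm25745, Manf with Rbm15b and Pdia4 with Mir704. Those of Ddit3 overlap another gene entry of that name. A strand setting does not separate these.

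In the synovium the folding machinery was higher in TNFdARE than in WT mice. By edgeR's quasi-likelihood test with Benjamini-Hochberg adjustment over all genes, 12 of 34 members rose, none fell (0, also by DESeq2, by limma-voom and at an unadjusted p under 0.05) and 22 missed the adjusted p threshold of 0.05. Of all genes tested 23.8% were called, 13.1% higher and 10.7% lower. The 12 were 9 of the 11 lumenal chaperones (Hspa5, Hsp90b1, Calr, Canx, Hyou1, Dnajb11, Sdf2l1, Manf and Creld2), the disulfide isomerases Pdia4 and Pdia6, and Edem1 of the degradation machinery. The increases lay between 0.32 and 0.79 on the log2 scale, where ± is the standard error of a log2 fold change from here on. Ern2 and Agr2 had too few counts in the synovium to be tested. CPM of the TNFdARE libraries lay wholly above those of WT in 18 of the 34 genes and wholly below in 0, where over all genes tested 20.7% lay above and 23.2% below. The median log2 fold change was 0.19 over the 34 genes and 0.0029 over all genes. DESeq2 called 14, the same 12 with P4hb and Pdia3. The count of 12 became 2 without WT replicate 2, 3 without WT replicate 3, 5 without TNFdARE replicate 3, and 0 with replicates 1 and 2 alone or with the level of skeletal muscle markers as a covariate. Summed muscle markers were lower and macrophage markers higher in TNFdARE synovium, with the values given further on. The muscle sums did not overlap between the genotypes, so the fit with this covariate cannot separate muscle level from genotype. In bulk tissue, fewer cells of a type and less RNA per cell cannot be told apart.

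In the ileum the same genes leaned the other way, and few passed the test. Of the 36 members 2 fell (Canx and Syvn1), none rose (0) and 34 missed the threshold; DESeq2 and limma-voom also called 0 higher, and 1 (Eif2ak3) was higher at an unadjusted p under 0.05. Of all genes tested 5.68% were called, 4.12% higher and 1.57% lower. The log2 fold change was below 0 in 31 of the 36 genes, among them all 11 chaperones and all 5 disulfide isomerases, with a median of -0.22 over the 36 genes and -0.0024 over all genes. Without scaling factors, which moved the median of all genes by 0.11, 15 of these 16 genes stayed below 0. TNFdARE libraries lay wholly below WT in 11 genes and wholly above in 1 (Eif2ak3), where over all genes 18.4% lay below and 18.9% above. The count of 2 became 0 without TNFdARE replicate 1 or 3 or any 1 WT library, 5 without TNFdARE replicate 2 (4 lower, and Derl3 higher), and 0 with limma-voom or the deposited FPKM. DESeq2 called 6 lower, namely Agr2, Atf4, Canx, P4hb, Sec61a1 and Syvn1.

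**Figure D1:**
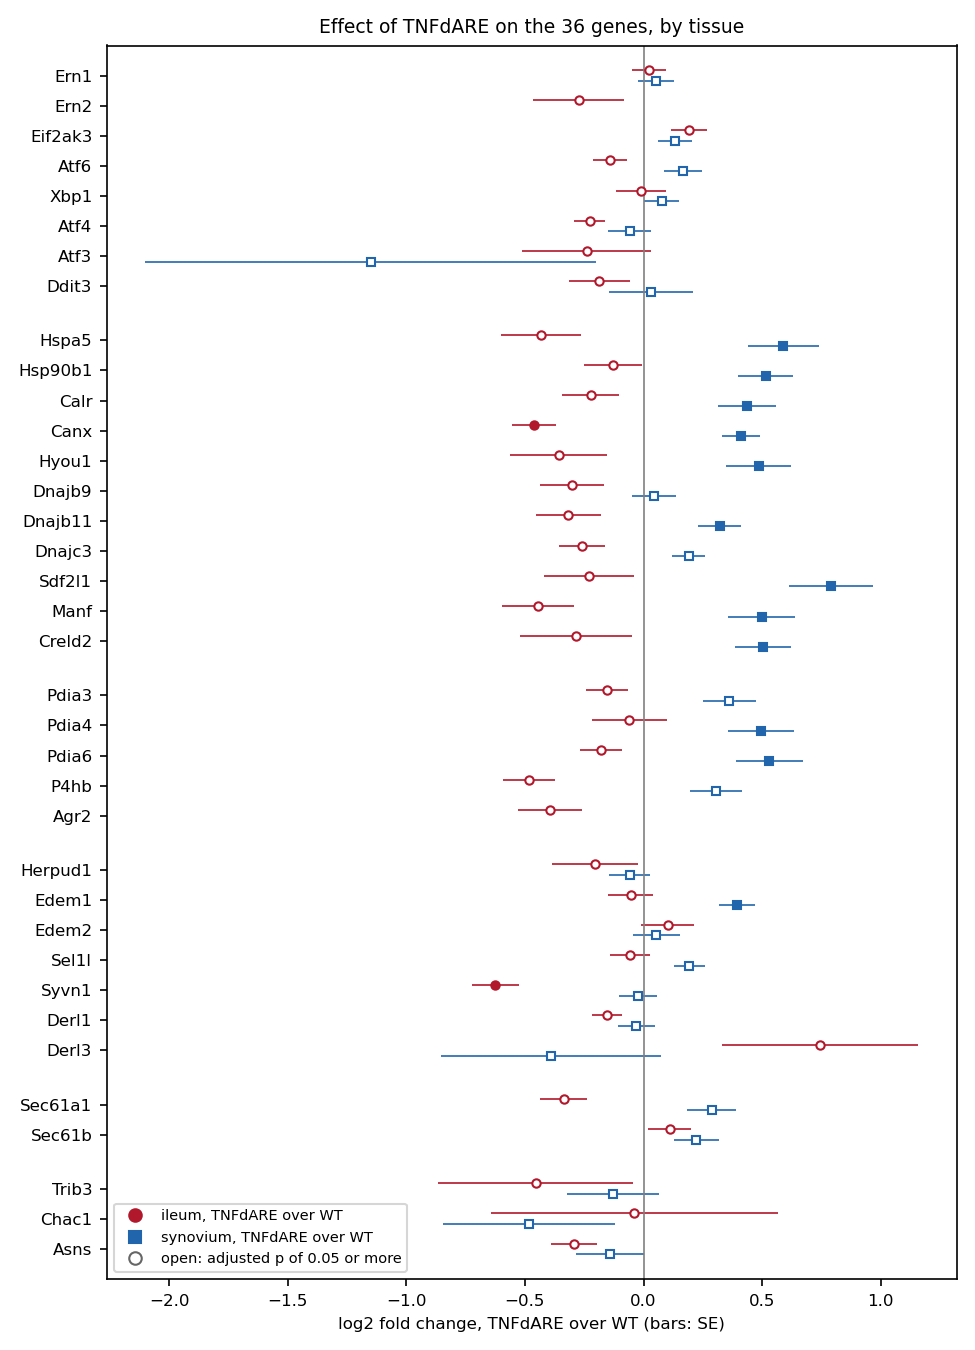
Log2 fold change of TNFdARE over WT (horizontal axis) for each gene, grouped by role, in the ileum (red circles) and the synovium (blue squares); bars are the standard error and filled symbols have an adjusted p under 0.05. The chaperones and disulfide isomerases lie right of 0 in the synovium and left of 0 in the ileum; Ern2 and Agr2 have no synovium value.

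The difference of effects between the tissues was tested directly, as the synovium effect minus the ileum effect in a model of all 12 libraries. It was called above 0 in 13 of 36 genes and called below 0 in none (0, also by DESeq2, by limma-voom and at an unadjusted p under 0.05). Of all genes tested 12.1% were called, 5.28% above 0 and 6.80% below. The 13 were Hspa5, Hsp90b1, Calr, Canx, Dnajb11, Dnajc3, Sdf2l1, Manf, Pdia6, P4hb, Edem1, Syvn1 and Sec61a1. Of the 12 genes that rose in the synovium, 9 were among these 13 (75% of the 12, 69.2% of the 13). Both tests use the same synovium libraries, so this overlap was partly built in. In 12 of the 13 the ileum estimate was below 0 and the synovium estimate above 0. The exception was Syvn1, with -0.02 ± 0.08 in the synovium. Choosing genes by a large difference favours such opposite signs, so they are no separate result. The median difference was 0.31 over the 36 genes and -0.08 over all genes. With 1 library left out the count ran from 3 (without WT synovium replicate 2 or 3) to 16, and Canx, P4hb and Syvn1 stayed called in all 12 such fits. DESeq2 called 17, the 13 with Creld2, Hyou1, Pdia3 and Sel1l. The count was 7 with library size scaling, 3 with the deposited FPKM and 0 with replicates 1 and 2 alone (7 at an unadjusted p under 0.05).

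**Figure D2:**
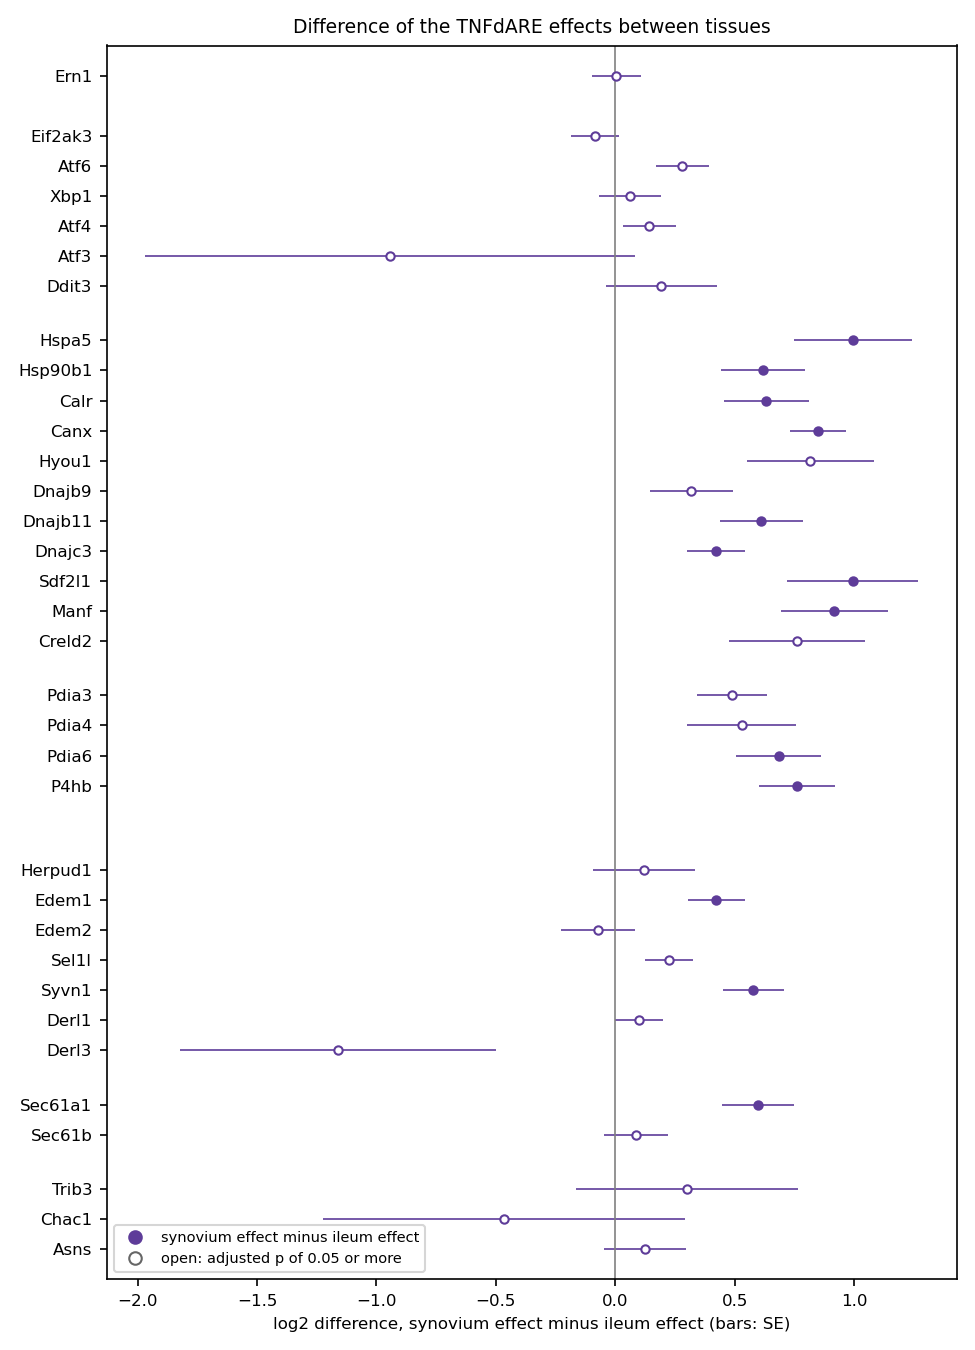
Synovium effect minus ileum effect on the log2 scale (horizontal axis, bars are the standard error) for 34 of the genes, grouped by role; filled symbols have an adjusted p under 0.05. The 13 filled symbols are all right of 0, from 0.42 for Edem1 to 1.00 for Hspa5; Ern2 and Agr2 are left out because the synovium held 0 to 4 counts of each per library.

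By edgeR, no sensor or transcription factor was called in either tissue; DESeq2 called Atf4 lower in the ileum. Xbp1, the highest of the 8 by mean CPM, had 187, 183 and 202 CPM in TNFdARE synovium, against 194, 177 and 183 CPM in WT synovium. In the ileum it had 296, 253 and 304 CPM in TNFdARE and 292, 260.0 and 309 CPM in WT. The groups overlapped in both tissues, with log2 fold changes of 0.08 ± 0.07 (adjusted p = 0.485) and -0.01 ± 0.11 (adjusted p = 0.964). Ern1 had estimates near 0 as well, of 0.05 ± 0.08 in the synovium and 0.02 ± 0.07 in the ileum, and Ddit3 (CHOP), the pro-apoptotic factor downstream of PERK, stood at 0.03 ± 0.18 in the synovium and -0.19 ± 0.13 in the ileum. Atf6 differed by 0.17 ± 0.08 in the synovium and -0.14 ± 0.07 in the ileum, and the difference of these effects did not pass (0.28 ± 0.11, adjusted p = 0.120).

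Of the PERK branch, Eif2ak3 itself had 83.8, 80.2 and 87.5 CPM in TNFdARE ileum and 78.98, 69.4 and 72.4 CPM in WT ileum. The groups did not overlap, and the difference of 0.19 ± 0.08 did not pass (adjusted p = 0.147). Atf4, the transcription factor that PERK and other kinases raise by translation, had 165, 163 and 171 CPM in TNFdARE ileum, against 189, 202 and 195 CPM in WT. All TNFdARE values were lower, with a log2 fold change of -0.23 ± 0.06 that did not pass by edgeR (adjusted p = 0.0764) and passed by DESeq2. In the synovium Atf4 differed by -0.06 ± 0.09. Atf3, an immediate early gene, varied widely between replicates. It had 21.7, 42.5 and 28.5 CPM in TNFdARE synovium and 169, 13.0 and 29.4 CPM in WT synovium. WT replicate 1 stood far above the rest, and the log2 fold change of -1.15 ± 0.95 (adjusted p = 0.428) became 0.56 without that library.

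Among the chaperones, Hspa5 (BiP), the HSP70 of the ER lumen that also holds the sensors inactive, had 673, 629 and 878 CPM in TNFdARE synovium, against 557, 478 and 443 CPM in WT synovium. Every TNFdARE library was above every WT library, and Hspa5 rose by 0.59 ± 0.15 (adjusted p = 0.0293). In the ileum Hspa5 had 648, 508 and 645 CPM in TNFdARE and 729, 711 and 995 CPM in WT. There the order was turned round without overlap, with WT replicate 3 far above the others, but the difference did not pass (-0.43 ± 0.17, adjusted p = 0.145). The effects differed between the tissues by 1.00 ± 0.25 (adjusted p = 0.0277).

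Hsp90b1 (GRP94), the HSP90 of the ER, had 534, 483 and 640.0 CPM in TNFdARE synovium and 412, 389 and 382 CPM in WT synovium. Here too the groups did not overlap, and it rose by 0.51 ± 0.12 (adjusted p = 0.0192). TNFdARE ileum had 836, 659.5 and 747 CPM and WT ileum 797, 765 and 899 CPM, which overlapped (-0.13 ± 0.12, adjusted p = 0.506). The difference of effects was 0.62 ± 0.18 (adjusted p = 0.0439). With the deposited FPKM in place of counts, the ileum estimate of Hsp90b1 was 0.33 and the difference of effects 0.06, neither of them called.

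Calr and Canx encode calreticulin and calnexin, the lectins that retain glycoproteins until they are folded. Calr had 684, 644 and 849 CPM in TNFdARE synovium, against 556, 577 and 511 CPM in WT synovium. Replicate 3 of TNFdARE was highest and no values overlapped (0.44 ± 0.12, adjusted p = 0.0405). In the ileum Calr had 911, 754 and 874 CPM in TNFdARE and 976, 904 and 1092 CPM in WT, with an overlap at replicate 1 of TNFdARE and replicate 2 of WT (-0.22 ± 0.12, adjusted p = 0.256), and its effects differed by 0.63 ± 0.18 (adjusted p = 0.0434).

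Canx was the single chaperone called in both tissues, in opposite directions. It had 402, 379 and 432 CPM in TNFdARE synovium, against 310.5, 316 and 303 CPM in WT synovium. The WT libraries lay close together and below all TNFdARE libraries, and Canx rose by 0.41 ± 0.08 (adjusted p = 0.0111). TNFdARE ileum had 525, 576 and 517 CPM and WT ileum 704, 735 and 797 CPM. All TNFdARE ileum values were lower, and Canx fell by 0.46 ± 0.09 on the log2 scale (adjusted p = 0.0449). The effects differed by 0.85 ± 0.12 (adjusted p = 0.00255), the smallest adjusted p of the 36 genes for this contrast. Its ileum call was lost in 5 of 6 fits that left out a library (adjusted p between 0.0073 and 0.176, the lowest without TNFdARE replicate 2). With the deposited FPKM the ileum value was -0.03, while the synovium value (0.32) and the difference of effects (0.35) stayed called.

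**Figure D3:**
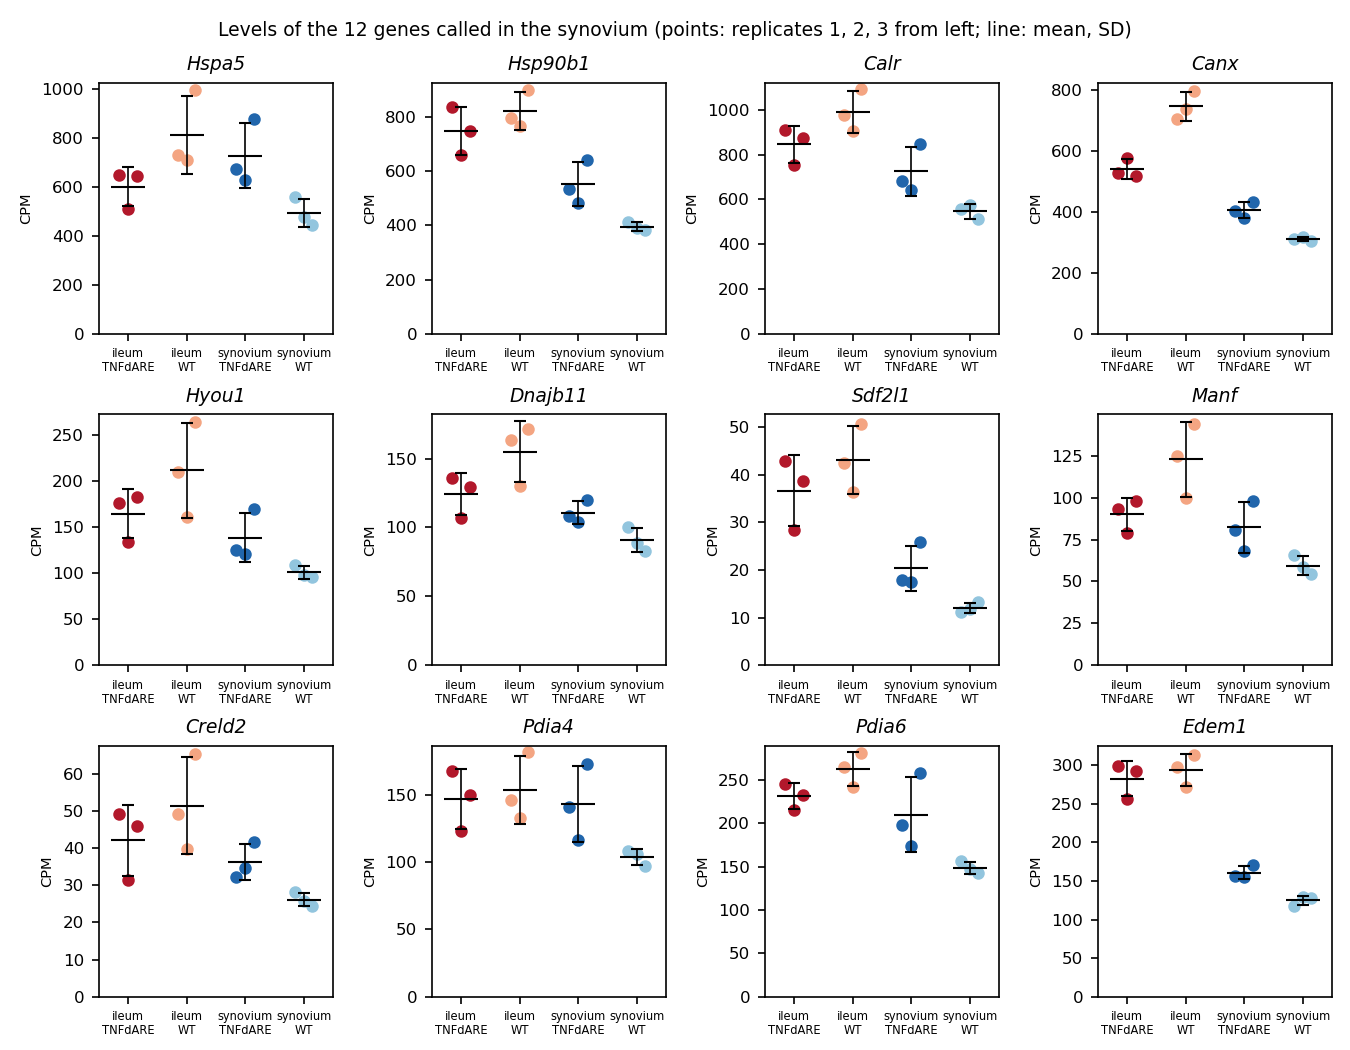
CPM of the 12 genes that rose in the synovium, in each library of TNFdARE and WT ileum (reds) and TNFdARE and WT synovium (blues); points are replicates 1, 2 and 3 from left, long bars the mean and short bars the SD (n = 3). In each panel all 3 TNFdARE synovium points lie above all 3 WT synovium points, replicate 3 highest, while the ileum groups overlap in 9 of the 12 panels; Canx has 539.6 ± 32.1 CPM in TNFdARE ileum and 745 ± 47.4 CPM in WT ileum.

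Manf, a small ER protein released under stress, had 80.6, 68.0 and 98.3 CPM in TNFdARE synovium and 65.6, 58.5 and 54.4 CPM in WT synovium. These did not overlap, and Manf rose by 0.50 ± 0.14 (adjusted p = 0.0418). In TNFdARE ileum it had 93.0, 78.7 and 98.2 CPM, against 125, 99.7 and 144 CPM in WT ileum. All TNFdARE values were lower without passing the test (-0.45 ± 0.15, adjusted p = 0.111), and the effects differed by 0.92 ± 0.23 (adjusted p = 0.0275).

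Sdf2l1, a cofactor of BiP, had the largest rise of the 12 genes, at a low level. It had 17.8, 17.5 and 25.8 CPM in TNFdARE synovium, against 11.1, 11.8 and 13.2 CPM in WT synovium. TNFdARE replicate 3 was well above the others and all 3 exceeded WT (0.79 ± 0.18, adjusted p = 0.0192). Ileum values were 42.9, 28.3 and 38.8 CPM in TNFdARE and 42.4, 36.3 and 50.7 CPM in WT, which overlapped (-0.23 ± 0.19). The difference of effects was 0.99 ± 0.27 (adjusted p = 0.0408).

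Dnajb11, Dnajc3 and Dnajb9, co-chaperones of BiP, had smaller estimates in the synovium than Hspa5 itself. Dnajb11 (ERdj3), a J protein that hands unfolded chains to BiP, had 109, 104 and 119.8 CPM in TNFdARE synovium and 100.0, 88.9 and 82.8 CPM in WT synovium. All TNFdARE values were higher, and Dnajb11 rose by 0.32 ± 0.09 (adjusted p = 0.0402). In the ileum Dnajb11 had 136, 107 and 129.6 CPM in TNFdARE and 164, 129.9 and 172 CPM in WT, overlapping (-0.32 ± 0.14), and its effects differed by 0.61 ± 0.17 (adjusted p = 0.0452). Dnajc3 (p58IPK), a J protein that also restrains PERK, had 174, 169 and 185 CPM in TNFdARE synovium, against 164, 159.8 and 148 CPM in WT synovium. Its ileum values were 177, 167 and 189.9 CPM in TNFdARE and 206, 197 and 238 CPM in WT. Neither tissue was called, with 0.19 ± 0.07 (adjusted p = 0.0941) and -0.26 ± 0.10 (adjusted p = 0.134), although the groups did not overlap in either, and the difference of effects passed (0.42 ± 0.12, adjusted p = 0.0453). Dnajb9 (ERdj4), a target of XBP1, was not called at 0.04 ± 0.09 in the synovium and -0.30 ± 0.13 in the ileum.

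Hyou1 (GRP170) exchanges the nucleotide of BiP, and Creld2 is a stress-induced lumenal protein. Hyou1 had 125, 120.4 and 169 CPM in TNFdARE synovium and 109, 98.0 and 95.8 CPM in WT synovium. Without overlap, Hyou1 rose by 0.49 ± 0.14 (adjusted p = 0.0423). Creld2 had 32.3, 34.8 and 41.7 CPM in TNFdARE synovium and 28.1, 25.9 and 24.4 CPM in WT synovium. Its TNFdARE values were all higher too, and Creld2 rose by 0.50 ± 0.12 (adjusted p = 0.0220). In the ileum Hyou1 had 176, 134 and 183 CPM in TNFdARE and 210.0, 160.4 and 263 CPM in WT. Creld2 had 49.1, 31.3 and 45.8 CPM in TNFdARE ileum and 49.2, 39.7 and 65.4 CPM in WT ileum. The genotypes overlapped for both genes there, and the estimates were -0.36 ± 0.20 for Hyou1 and -0.28 ± 0.24 for Creld2. Their differences of effects did not pass by edgeR, while DESeq2 and the replicate block called both. They stood at 0.82 ± 0.27 (adjusted p = 0.0704) for Hyou1 and 0.76 ± 0.28 (adjusted p = 0.102) for Creld2.

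Summed over the 11 chaperones, the levels were 2871, 2687 and 3477 CPM in TNFdARE synovium, against 2358, 2240 and 2094 CPM in WT synovium. In the ileum the sums were 3634, 3089 and 3513 CPM in TNFdARE and 4045, 3832 and 4777 CPM in WT. The sums did not overlap between genotypes in either tissue, in opposite directions. Single libraries weighed on these sums: replicate 3 was the highest TNFdARE synovium library for all 11 chaperones, and in the ileum replicate 3 was the highest WT library for all 11. Over the members above 1 CPM, replicate 3 was highest in 26 of 33 in TNFdARE synovium and in 27 of 36 in WT ileum. It was highest in 3 of 34 in WT synovium and in 11 of 36 in TNFdARE ileum.

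**Figure D4:**
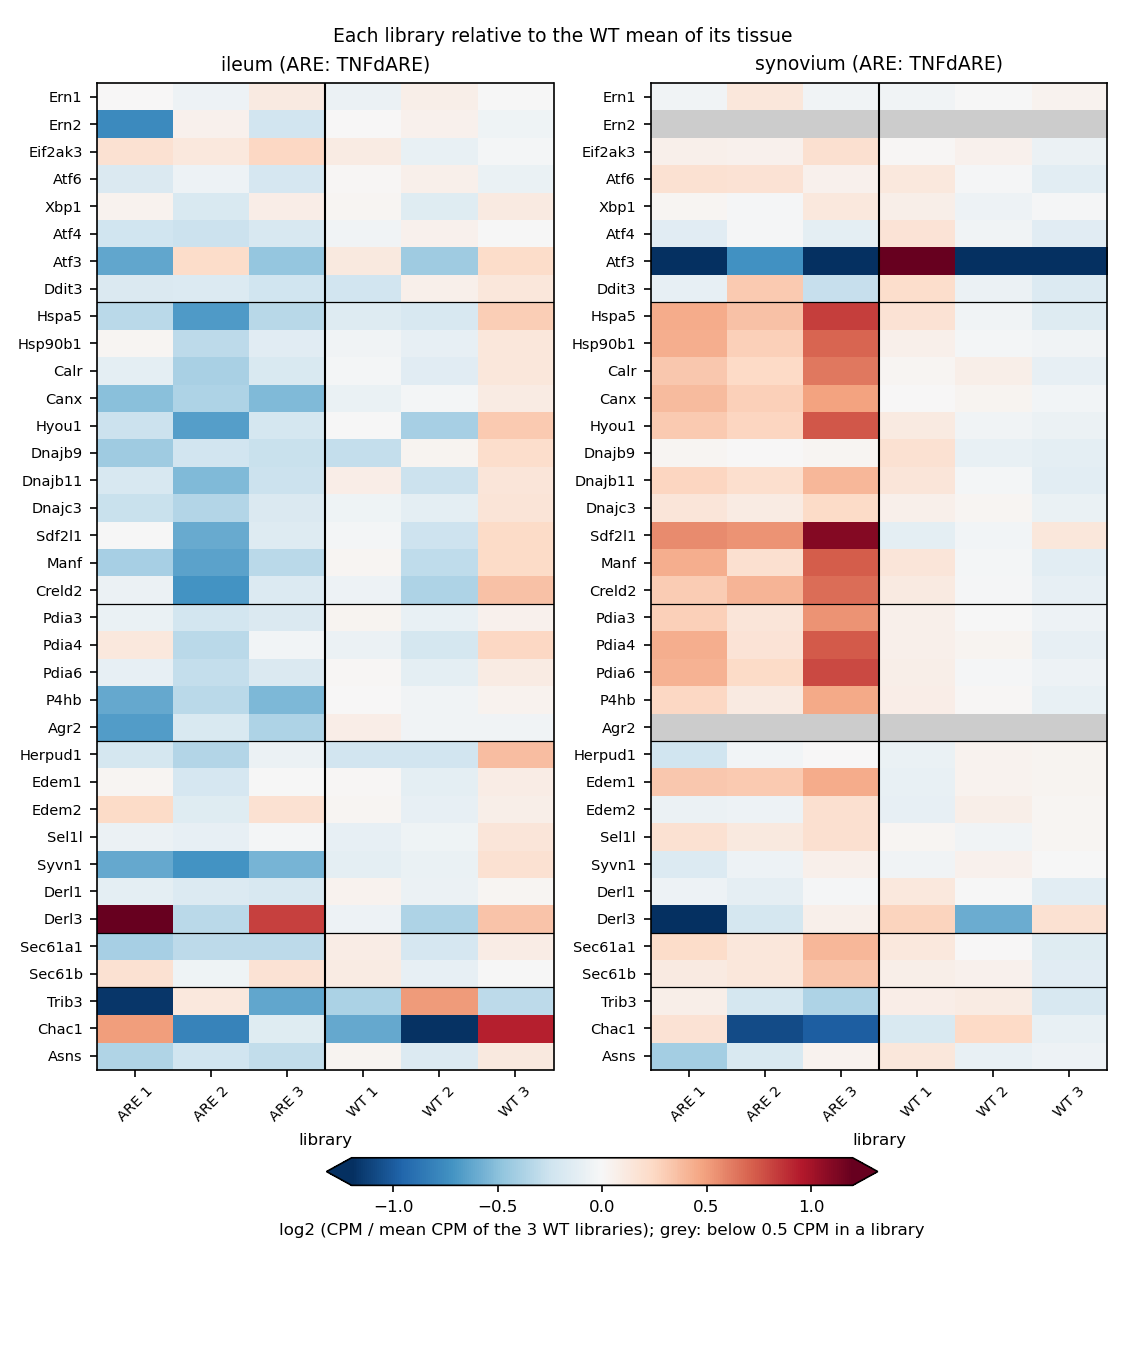
Colour shows the log2 ratio of each library's CPM to the mean CPM of the 3 WT libraries of its tissue, for the 36 genes (rows, by role) in the 6 ileum and 6 synovium libraries (columns, TNFdARE left of WT); grey rows fell below 0.5 CPM. The chaperone and disulfide isomerase rows are red in all TNFdARE synovium libraries, most in replicate 3, apart from Dnajb9 and the grey row of Agr2; in the ileum the TNFdARE libraries are mostly blue and WT replicate 3 is red.

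The 5 disulfide isomerases make and rearrange the disulfide bonds of secreted proteins. Pdia6 had 199, 174 and 258 CPM in TNFdARE synovium and 156, 147 and 142 CPM in WT synovium. TNFdARE values were all higher, and Pdia6 rose by 0.53 ± 0.14 (adjusted p = 0.0352). TNFdARE ileum had 246, 216 and 232 CPM and WT ileum 265, 242 and 281 CPM, overlapping (-0.18 ± 0.09); the effects differed by 0.68 ± 0.18 (adjusted p = 0.0340). Pdia4 had 141, 117 and 173 CPM in TNFdARE synovium and 108, 106 and 97.4 CPM in WT synovium, and rose by 0.49 ± 0.14 (adjusted p = 0.0417). No values overlapped there. In the ileum Pdia4 had 168, 123 and 150.01 CPM in TNFdARE and 146, 133 and 182 CPM in WT, which overlapped, with an estimate near 0 (-0.06 ± 0.16), and the difference of effects did not pass (0.53 ± 0.23, adjusted p = 0.151).

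P4hb, the classical disulfide isomerase and a subunit of the enzyme that hydroxylates collagen, was the isomerase with the clearest difference between tissues. It had 822, 745 and 949 CPM in TNFdARE synovium and 730.1, 699 and 649 CPM in WT synovium. In the ileum it had 833, 1020.1 and 878 CPM in TNFdARE, against 1279, 1235 and 1311 CPM in WT. Although the groups did not overlap in either tissue, neither difference passed by edgeR (0.31 ± 0.11, adjusted p = 0.0862 in the synovium and -0.48 ± 0.11, adjusted p = 0.0519 in the ileum), and the difference of effects did (0.76 ± 0.16, adjusted p = 0.0154). DESeq2 called P4hb in both tissues (adjusted p = 0.0383 in the synovium and 0.000309 in the ileum), and edgeR with no filter on low counts called it in the ileum (adjusted p = 0.0482), as did the fit to all 12 libraries (adjusted p = 0.0168) and that without TNFdARE replicate 2 (adjusted p = 0.00437). Pdia3 (ERp57), the partner of calnexin and calreticulin, just missed the threshold in the synovium (0.36 ± 0.11, adjusted p = 0.0560) and for the difference of effects (0.49 ± 0.15, adjusted p = 0.0522) by edgeR, and passed both by DESeq2. Agr2, the isomerase that mucin needs in goblet cells, had 429, 603 and 529 CPM in TNFdARE ileum and 725, 666 and 665 CPM in WT ileum. All TNFdARE values were lower, with a log2 fold change of -0.39 ± 0.13 that did not pass by edgeR (adjusted p = 0.110) but did by DESeq2 and without TNFdARE replicate 2. The 8 other goblet cell markers summed to 12747, 21569 and 18353 CPM in TNFdARE ileum, against 21730, 20711 and 21635 CPM in WT ileum, and the part of goblet cells in this was not tested.

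The degradation machinery returns misfolded proteins to the cytosol, and 1 of its 7 members rose in the synovium while 1 other fell in the ileum. Edem1, which hands misfolded glycoproteins to the disposal complex, had 156, 155 and 170.3 CPM in TNFdARE synovium and 117, 129 and 128 CPM in WT synovium. Again no values overlapped, and Edem1 rose by 0.39 ± 0.08 (adjusted p = 0.0106). In the ileum Edem1 had 299, 256 and 293 CPM in TNFdARE and 298, 271 and 313 CPM in WT, which overlapped (-0.05 ± 0.10), and the effects differed by 0.42 ± 0.12 (adjusted p = 0.0437). Edem2, its relative, was at 0.05 ± 0.10 in the synovium and 0.10 ± 0.11 in the ileum and was not called.

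Syvn1 (HRD1), the ubiquitin ligase at the centre of the disposal complex, had the larger of the 2 called decreases in the ileum. It had 89.5, 83.2 and 92.9 CPM in TNFdARE ileum, against 126, 129 and 155 CPM in WT ileum. All TNFdARE values were lower, and Syvn1 fell by 0.63 ± 0.10 on the log2 scale (adjusted p = 0.0404). Synovium values were 66.6, 71.4 and 77.9 CPM in TNFdARE and 72.3, 77.4 and 74.3 CPM in WT, which overlapped (-0.02 ± 0.08, adjusted p = 0.865). The effects differed by 0.58 ± 0.13 (adjusted p = 0.0191). As for Canx, the ileum call was lost in 5 of 6 fits without a library (adjusted p between 0.00652 and 0.174, with log2 fold changes between -0.68 and -0.53).

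Sel1l, the adaptor of SYVN1, had 217, 206 and 217 CPM in TNFdARE synovium and 193, 185 and 193 CPM in WT synovium. All TNFdARE values were higher, and the difference of 0.19 ± 0.06 missed the threshold (adjusted p = 0.0684); the difference of effects was called by DESeq2 and not by edgeR. Herpud1, an ER membrane protein of the same complex with an ERSE-II in its promoter, was not called in the synovium (-0.06 ± 0.09) or the ileum (-0.20 ± 0.18), and neither was Derl1 (-0.03 ± 0.08 and -0.15 ± 0.06). Derl3, the derlin of secretory cells, had 9, 25 and 30 counts in TNFdARE synovium and 29, 17 and 29 counts in WT synovium. In the ileum its counts were 352, 104 and 231 in TNFdARE and 127, 97 and 165 in WT. The ileum groups overlapped, and its log2 fold change, the highest of the 36 genes there, did not pass (0.75 ± 0.41, adjusted p = 0.270). It was 1.09 ± 0.23 and called without TNFdARE replicate 2 (adjusted p = 0.0126), and 0.38 ± 0.38 without TNFdARE replicate 1.

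The translocon is the channel through which new chains enter the ER. Its pore subunit Sec61a1 had 274, 259 and 311 CPM in TNFdARE synovium and 257, 236 and 213 CPM in WT synovium. Ileum values were 298, 315 and 317 CPM in TNFdARE, against 417, 342 and 419 CPM in WT. The groups were apart in both tissues without passing by edgeR (0.29 ± 0.10, adjusted p = 0.0823 in the synovium and -0.34 ± 0.10, adjusted p = 0.0854 in the ileum, where DESeq2 called it lower), and the effects differed by 0.60 ± 0.15 (adjusted p = 0.0294). The small subunit Sec61b was at 0.22 ± 0.10 in the synovium and 0.11 ± 0.09 in the ileum, not called in either, with a difference of effects of 0.09 ± 0.13 (adjusted p = 0.724).

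No target of the integrated stress response was called. Asns, the most abundant of the 3, had 13.2, 15.4 and 18.1 CPM in TNFdARE synovium, against 19.3, 16.5 and 16.8 CPM in WT synovium. In the ileum it had 34.4, 37.6 and 35.99 CPM in TNFdARE and 45.3, 39.4 and 48.0 CPM in WT. The synovium groups overlapped (-0.14 ± 0.14) and the ileum groups did not (-0.29 ± 0.10, adjusted p = 0.101). Chac1, an enzyme that degrades glutathione, and Trib3, a pseudokinase induced by CHOP, stayed between 1.02 and 5.21 CPM in all 12 libraries. Their log2 fold changes were -0.48 ± 0.36 and -0.13 ± 0.20 in the synovium, and -0.04 ± 0.61 and -0.46 ± 0.41 in the ileum. All 3 estimates thus lay below 0 in both tissues, without a call.

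Presence of an ERSE or ERSE-II was set beside the calls. In the synovium 7 of the 11 genes with such a site rose (Calr, Canx, Creld2, Dnajb11, Hsp90b1, Hspa5 and Pdia6), with a median log2 fold change of 0.41. Of 18 tested genes whose promoter held neither, 3 rose (Edem1, Pdia4 and Sdf2l1), with a median of 0.07. In the ileum both genes that fell, Canx and Syvn1, carried an ERSE, and the medians were -0.26 with a site and -0.15 without. Derl3, Dnajc3, Herpud1 and Syvn1 carried a site and were not called in the synovium. Most genes with a site were chaperones, and no sensor, transcription factor or integrated stress response target that was searched carried one. Site and role therefore largely coincided. Hyou1 and Manf, which rose in the synovium, were not searched. The association was not tested.

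The other counts without a library in the synovium, and the genes they rest on, were as follows. The count was 7, of which 1 was a decrease (Chac1), without TNFdARE replicate 1, 12 without TNFdARE replicate 2 and 6 without WT replicate 1. Canx and Edem1 stayed called in all 6 fits without a library, Hsp90b1 and Sdf2l1 in 4, Hspa5 and Creld2 in 3, and the other 6 genes in 1 or 2. With replicates 1 and 2 alone, the libraries without female-pattern transcripts, 0 of 34 genes passed (8 had an unadjusted p under 0.05), and 14 of 15 chaperones and isomerases tested stayed above 0, with a median of 0.29. Fitted to the deposited FPKM, 3 genes passed in the synovium (Canx, Creld2 and Sdf2l1).

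Summed levels of cell type markers also differed between the genotypes. The 11 skeletal muscle markers summed to 7628, 4071 and 1848 CPM in TNFdARE synovium, against 21466, 10283 and 11698 CPM in WT synovium, and 1 of 11 (Myh4) fell. With the muscle level as a covariate, 0 of 34 genes passed in the synovium (2 had an unadjusted p under 0.05), and all 15 chaperones and isomerases tested stayed above 0, with a median of 0.25. The muscle sums did not overlap between the genotypes, so this fit cannot separate muscle level from genotype. The 9 macrophage markers summed to 7344, 5476 and 6514 CPM in TNFdARE synovium, against 1932, 2379 and 2224 CPM in WT synovium, and 8 of 9 rose. The 9 synovial fibroblast markers, 3 of which rose and 2 of which fell, summed to between 43338 and 47858 CPM in TNFdARE synovium and between 53751 and 91502 CPM in WT synovium. Plasma cell markers, of which 0 of 11 tested were called, summed to between 864 and 1283 CPM in TNFdARE synovium and between 1124 and 1590 CPM in WT. The part of macrophages, fibroblasts and plasma cells in the result was not tested.

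In the ileum the 9 Paneth cell markers summed to 1604, 9686 and 5693 CPM in TNFdARE, against 16149, 11224 and 19212 CPM in WT, and 0 of 9 passed. Plasma cell markers summed to 21991, 9240 and 15963 CPM in TNFdARE ileum and to 8793, 5858 and 9599 CPM in WT ileum, with 0 of 12 called. The 8 epithelial markers, of which 1 fell, summed to between 8932 and 10632 CPM in TNFdARE ileum and between 12321 and 13303 CPM in WT ileum. The 9 macrophage markers, of which 6 rose, ran from 1298 to 5348 CPM in TNFdARE ileum and from 353 to 467 CPM in WT ileum. None of these lists had a marker at 0 in the ileum. Their part in the ileum values was not tested.

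**Figure D5:**
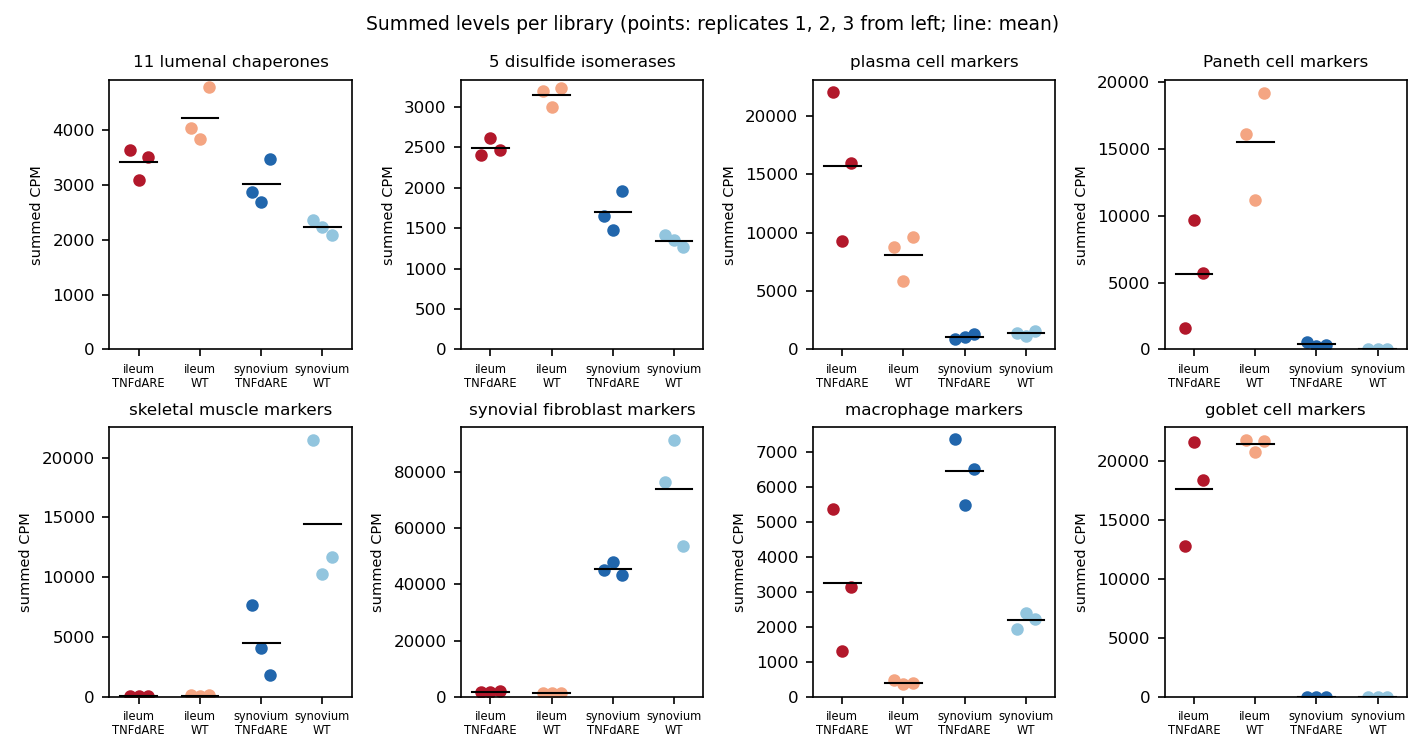
Summed CPM per library of the 11 lumenal chaperones, the 5 disulfide isomerases and 6 lists of cell type markers (members of the 36 genes left out of the marker lists); points are replicates 1, 2 and 3 from left and lines the mean, with TNFdARE left of WT in each tissue. Chaperones are higher in TNFdARE than in WT synovium, where muscle markers are lower and macrophage markers higher; in the ileum chaperones are lower in TNFdARE, as are Paneth cell markers, while plasma cell markers overlap.

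Neighbouring parts of the secretory pathway were counted without the 36 members, beside the 13.1% of all genes called higher and 10.7% called lower in the synovium. In the synovium 5 of 14 oxidative folding genes rose (Ero1l, Erp29, Ppib, Qsox1 and Selenof), with a median log2 fold change of 0.28. Ero1l, the oxidase that recharges disulfide isomerases, rose by 0.52 ± 0.08 (adjusted p = 0.00417), with 42.8 ± 0.972 CPM in TNFdARE and 30.4 ± 1.80 CPM in WT synovium (SD, n = 3). Selenof, a selenoprotein of glycoprotein folding, rose by 0.36 ± 0.07 (adjusted p = 0.0128). Among the N-glycosylation and glycan trimming genes 2 of 16 rose, with a median of 0.18. They were Dpagt1, the enzyme that starts the glycan precursor (0.47 ± 0.08, adjusted p = 0.00594), and Uggt1, the folding sensor that returns glycoproteins to calnexin (0.34 ± 0.08, adjusted p = 0.0222). For the difference of effects 6 of these 16 genes, 4 of 14 oxidative folding genes, 3 of 25 COPII and COPI transport genes and 3 of 21 translocation genes were called above 0 and none below, where 5.28% of all genes were called above 0 and 6.80% below. Of 25 amino acid and integrated stress response targets 3 were called above and 2 below, of 17 degradation genes 1 below, and of 15 further sensors and factors none.

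Of 25 COPII and COPI genes, which move cargo between ER and Golgi, 2 rose in the synovium, the cargo receptor Tmed10 (0.36 ± 0.07, adjusted p = 0.0120) and the coat subunit Sec23b (0.33 ± 0.09, adjusted p = 0.0321). Among 21 translocation and signal peptide cleavage genes 2 rose, the signal peptidase subunits Spcs3 (0.42 ± 0.06, adjusted p = 0.00415) and Sec11c (0.24 ± 0.07, adjusted p = 0.0401). Of 17 further ER-associated degradation genes Derl2 rose by 0.27 ± 0.06 (adjusted p = 0.0222), Ube2j1 rose as well, and Erlec1, a lectin of this pathway, fell by 0.28 ± 0.07 on the log2 scale (adjusted p = 0.0251). Of 15 further sensors and factors 3 rose, namely Atf6b, Traf2, the adaptor of IRE1 (0.62 ± 0.10, adjusted p = 0.00676), and Eif2s1, the initiation factor that PERK phosphorylates (0.50 ± 0.10, adjusted p = 0.0126).

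The wider list of amino acid and integrated stress response targets was mixed in the synovium, with 2 of 25 higher (Cars and Slc7a11), 4 lower (Atf5, Ddit4, Stc2 and Vldlr) and a median of 0.06. Vldlr, a lipoprotein receptor, fell by 1.31 ± 0.14 on the log2 scale (83.02 ± 12.1 CPM in TNFdARE and 210 ± 32.8 CPM in WT synovium, SD of 3 libraries, adjusted p = 0.00166). Ddit4 (REDD1), an inhibitor of mTORC1, fell by 1.73 ± 0.18 (43.7 ± 10.6 CPM in TNFdARE, against 149 ± 17.8 CPM in WT synovium, adjusted p = 0.00191).

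In the ileum, where 4.12% of all genes were called higher and 1.57% lower, the called genes of these lists were all lower. Magt1 and Ostc, subunits of the oligosaccharyltransferase, fell by 0.42 ± 0.08 (adjusted p = 0.0436) and 0.32 ± 0.07 (adjusted p = 0.0487), 2 of 16 glycosylation genes. Sec23a, a COPII coat subunit, fell by 0.55 ± 0.11 and Kdelr2, the receptor that returns chaperones to the ER, by 0.42 ± 0.09 (adjusted p = 0.0459 for each), 2 of 25 transport genes. Ppp1r15b, which keeps the initiation factor dephosphorylated, fell by 0.35 ± 0.08 (adjusted p = 0.0486), 1 of 15 in its list. None of the 25 integrated stress response targets, 21 translocation genes, 14 oxidative folding genes or 17 degradation genes passed in the ileum.

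Between the tissues of WT mice, the machinery was higher in the ileum than in the synovium. Of the 36 genes 30 were higher in WT ileum, 1 was lower and 5 did not pass, where 74.2% of all genes tested were called, 36% higher and 38.2% lower. All 11 chaperones, all 5 isomerases, all 7 degradation genes and both translocon subunits were among the 30. For the chaperones the log2 differences, WT ileum over WT synovium, ran from 0.44 for Dnajb9 and Dnajc3 to 1.84 ± 0.20 for Sdf2l1. Trib3 was the gene lower in the ileum (2.08, 3.87 and 2.18 CPM in WT ileum, against 5.13, 5.21 and 4.24 CPM in WT synovium; -0.84 ± 0.33, adjusted p = 0.0359). The Trib3 call was lost without ileum WT replicate 1 or 3, without synovium WT replicate 1 or 2 and with replicates 1 and 2 alone (adjusted p up to 0.184). With 1 library left out, the call of Herpud1 was kept in 6 of 12 fits (adjusted p up to 0.161). Those of Derl1 and Sel1l were kept in 10 of 12 each. Eif2ak3, Atf4, Atf3, Ddit3 and Chac1 did not pass by edgeR, and DESeq2 called Eif2ak3 higher in the ileum.

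Ern2 and Agr2, both known from mucus-producing epithelium, were close to absent from the synovium. Ern2 had 39.3, 69.1 and 56.9 CPM in TNFdARE ileum and 66.9, 68.9 and 64.3 CPM in WT ileum, and 0 counts in all 6 synovium libraries. Against a floor of 3 counts over each synovium group, Ern2 was at least 882-fold higher in TNFdARE ileum and at least 907-fold higher in WT ileum than in the synovium of the same genotype. Agr2 had 1, 2 and 3 counts in TNFdARE synovium and 3, 4 and 1 counts in WT synovium. Its ratio of count shares, ileum over synovium, was 4182 in TNFdARE mice (95% exact interval of counting error 1921 to 11398) and 3498 in WT mice (1775 to 8102).

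Per length of exon, P4hb, Calr, Pdia3, Hsp90b1 and Hspa5 ranked among the 6 highest of the 36 genes in all 4 groups. P4hb was highest in the synovium, at 293 ± 35.9 CPM per kb in TNFdARE and 242 ± 14.3 in WT synovium (SD, n = 3 here and below). Agr2 was highest in the ileum, at 403 ± 67.4 CPM per kb in TNFdARE and 531 ± 26.7 in WT ileum, followed by P4hb at 318 ± 34.2 in TNFdARE and 446 ± 13.2 in WT. In TNFdARE ileum the means of Agr2 and P4hb lay closer than the sum of their SDs. The sensors stood far lower, with Ern1 at 8.38 ± 0.614 CPM per kb in TNFdARE synovium and 8.24 ± 0.243 in WT synovium. Xbp1 and Atf4 were the highest of the sensors and factors in each group, Xbp1 at 58.7 ± 3.04 CPM per kb in TNFdARE and 56.8 ± 2.77 in WT synovium.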

How the data were processed

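Poly-A RNA of mouse ileum and synovium was sequenced as 12 stranded libraries (single reads, 100 cycles), per the labels' protocols. Reads were trimmed with cutadapt 1.15 and GRCm38 was the build, per the submitters' processing notes, which also name Bowtie2 2.3.3.1; for the counting tool and its annotation, the sources used here give no name. Raw counts by Ensembl gene were deposited (46603 genes, of which 19236 had 0 counts in all libraries) and FPKM values of 17046 genes. The deposited FPKM table held no 0, although 5756 of its values belong to a gene with a count of 0 in that library, so the FPKM had been adjusted before they were deposited, in a way that was not given. The count table also held 1001972 lines without a gene, all empty, which were left out, and 0 columns of other samples.

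Members were matched to identifiers through GENCODE M21, which held 98.9% of the identifiers. Counts were tested with edgeR 4.0.16 (R 4.3.3): filterByExpr, TMM scaling, robust quasi-likelihood F tests, two-sided, with p-values adjusted by Benjamini-Hochberg across every gene of the fit and called under 0.05. Each tissue was fitted on its 6 libraries, and the difference of effects and the tissue contrast on all 12. The standard error is the log2 fold change over the square root of F. CPM per kb divides CPM by the exon length of the gene in GENCODE M21. Lists were described by counts and medians. Tables, promoter searches and figures used Python 3.11.15, pandas 2.3.3, SciPy 1.17.1 and Matplotlib 3.10.9.

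Alternatives were RLE and library size scaling, no filter and a filter of 1 CPM, DESeq2 1.42.0, limma-voom (limma 3.58.1), limma on log2(FPKM + 1) and log2(FPKM + 0.1), other sets of libraries, the replicate block, a muscle covariate in the synovium, and each library left out. The fits on replicates 1 and 2 alone were chosen after seeing the data. Same-numbered libraries were checked for pairing by the correlation of their deviations from the group means over 10537 genes. In the synovium all 3 pairs exceeded 0.1 (0.455, 0.293 and 0.178), and in the ileum 1 pair did not (0.249, 0.255 and 0.0874). Pairs with unlike numbers reached 0.163 in the synovium and 0.147 in the ileum. Same-numbered libraries also shared the pattern of sex-linked transcripts. These correlations therefore do not settle whether the numbers pair libraries. Across tissues the correlations ran from -0.108 to 0.163.

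On simulated counts with 200 changed genes, the synovium test called 79% of the 2-fold and 96% of the 4-fold changes (15 false among 190 calls over 15425 genes), the ileum test 56% and 93% (7 among 156, 15283 genes), and the test of the difference 43% and 82% (8 among 133, 16734 genes). With no change simulated these tests called 2, 3 and 0 genes. Changes below 2-fold were not simulated, and every called difference between genotypes in a member was below 2-fold. Replicates differed by at least 12.2 in chi-square per gene and were all kept as separate samples. The labels call them biological replicates without saying more, so p-values measure the spread between these samples. The interval and floor given for counts cover counting error only.

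The members and lists were chosen with earlier results of these data known. Values in every library are given for each member called in a tissue or for the difference of effects, and for the member with the highest mean CPM in roles with none called; some further members are given by library, chosen after their values were seen. From the other lists of the pathway, values are given for the 2 called genes with the smallest adjusted p in each tissue; called genes named there without values were added after their values were seen.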

Additional observations from a re-analysis of the deposited data

Results flagged for a closer look

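For 13 of the 36 genes the effect of TNFdARE differed between synovium and ileum by the test of the difference itself. In order of role, the synovium effect minus the ileum effect on the log2 scale was 1.00 for Hspa5, 0.62 for Hsp90b1, 0.63 for Calr, 0.85 for Canx, 0.61 for Dnajb11, 0.42 for Dnajc3, 0.99 for Sdf2l1 and 0.92 for Manf among the chaperones. Among the disulfide isomerases it was 0.68 for Pdia6 and 0.76 for P4hb, and in the degradation machinery 0.42 for Edem1 and 0.58 for Syvn1. For the translocon pore Sec61a1 it was 0.60. Canx, P4hb and Syvn1 stayed called whichever of the 12 libraries was left out, and the other 10 lost the call without at least 1 library.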

How the results depend on the processing

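With the replicate block, the counts of members called were 12 in the synovium, 2 in the ileum (Syvn1 and Manf in place of Canx, which had an adjusted p of 0.0590), 14 for the difference of effects and 31 between WT tissues. Against 2 in the ileum, library size scaling gave 1, DESeq2 gave 6 (all lower), and limma-voom and the FPKM at either pseudocount gave 0 (11, 7 and 7 at an unadjusted p under 0.05). Against 12 in the synovium, the FPKM gave 3 at either pseudocount and the muscle covariate 0. Against 13 for the difference of effects, library size scaling gave 7 and the FPKM 3 at either pseudocount. With replicates 1 and 2 alone the counts were 0 in the synovium, 0 in the ileum and 0 for the difference of effects (8, 1 and 7 at an unadjusted p under 0.05). With 1 library left out they ran from 2 to 12 in the synovium, from 0 to 5 in the ileum (4 lower and Derl3 higher without TNFdARE replicate 2; 0 without any other) and from 3 to 16 for the difference of effects. The last count was 3 without synovium WT replicate 2 or 3, 4 without replicate 3 of TNFdARE synovium or of TNFdARE ileum, 6 without ileum WT replicate 3 and 8 without synovium TNFdARE replicate 1. Between WT tissues 27 to 32 were called with a library left out. Atf3, WT ileum over WT synovium, was -0.42 on the log2 scale and ran from -0.92 to 1.32 with a library left out, the highest without synovium WT replicate 1. Of 2772 recomputed values of single genes, 52 changed sign under another setting and 38 with a library left out, uncalled before and after. With a library left out, 1 further value changed sign and was then called, in the contrast of WT tissues. FPKM of the tissue contrast was not run. The cause of these changes was not tested. Over all genes, the ileum had 637 higher and 242 lower calls, against 1218 and 161 with library size scaling (which moved the median of all genes to 0.11), 1715 and 988 with DESeq2, 1827 and 895 in the fit of all 12 libraries, and 0 with limma-voom, with the FPKM, with replicates 1 and 2 alone and without any 1 of the WT libraries. Without TNFdARE replicate 2 there were 2609 and 2024, without TNFdARE replicate 1 there were 213 and 65, and without TNFdARE replicate 3 there were 2 and 0. The synovium had 2037 and 1676, against 412 and 112 with the muscle covariate, 459 and 232 with replicates 1 and 2 alone, and 1278 and 863 without TNFdARE replicate 3. The difference of effects had 896 and 1154, against 626 and 1380 with library size scaling, 1353 and 951 with the FPKM at a pseudocount of 1, 1617 and 1575 with DESeq2, 1814 and 1692 without ileum TNFdARE replicate 2, and 7 and 1 with replicates 1 and 2 alone. Chac1 and Derl3, both of few counts, had standard errors of 0.36 and 0.46 on the log2 scale in the synovium.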

Other observations

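Lyz1, the Paneth cell lysozyme, was the 1 Paneth cell marker with enough counts to be tested in the synovium, and it was called higher there by 4.05 on the log2 scale. The summed Paneth cell markers were 550.5, 264 and 365 CPM in TNFdARE synovium, against 27.1, 18.6 and 31.3 CPM in WT synovium, while the marker Defa17 had 0 counts in both groups. Just 1 of the 9 markers exceeded 1 CPM in all 3 libraries of each synovium group, so these sums rest on Lyz1. They do not show the other Paneth cell genes in the joint, and the cell source of Lyz1 was not tested. Neutrophil markers summed to 617, 170.1 and 379 CPM in TNFdARE ileum and to 19.1, 11.3 and 14.6 CPM in WT ileum, with 6 of 7 tested called higher. In the synovium they summed to 1442, 4169 and 2474 CPM in TNFdARE and to 1920.0, 4082 and 2467 CPM in WT, with 0 of 8 called. Of 8 bone cell markers 1 was called higher and 3 lower in the synovium, and of 4 tested in the ileum 1 was called lower.

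Derl3, the derlin of secretory cells, followed the order of the plasma cell markers over the TNFdARE ileum libraries: its counts were 352, 104 and 231, and the markers summed to 21991, 9240 and 15963 CPM. In WT ileum the counts of Derl3 were 127, 97 and 165, and the plasma cell markers summed to 8793, 5858 and 9599 CPM. The order in TNFdARE ileum was not particular to plasma cell markers. Macrophage markers (5348, 1298 and 3123 CPM), neutrophil markers (617, 170.1 and 379 CPM) and Tnf (82.8, 17.2 and 47.4 CPM) shared it. Goblet cell markers ran in the reverse order (12747, 21569 and 18353 CPM). These points share their libraries and their number is too small for a correlation. Atf3, an immediate early gene, had 2435 counts in synovium WT replicate 1, against 200 and 450 in the other WT synovium libraries.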
